A study of Mus musculus with 10 samples.

Results

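The genes described here are 52 genes of the fibroblast, the meninges and the extracellular matrix, taken by symbol from a fixed list in the deposited expression tables of mouse trigeminal ganglion. The list was chosen with earlier results of these data known. They are 52 of 57099 genes in the tables as a whole, and 50 of them were expressed highly enough to be tested in each experiment. RNA was sequenced in 10 libraries of the ganglion, in which sensory neurons of the face lie among glia, vessels and connective tissue. The surgery experiment had 3 sham libraries and 3 after a surgery labelled pIONT, all on day 10. The injection experiment had 2 libraries given PBS (phosphate-buffered saline) and 2 given UCN1 (urocortin 1, a peptide related to corticotropin-releasing factor), each put into the ganglion 6 hours earlier. Their deposited columns are headed P1, P3, U1 and U3, numbered here 1 and 2 as in the titles. Whether further libraries were made is not stated in the sources used here. Strain, sex, age and any allele or transgene, and whether a library was 1 animal or a pool, are not stated in the sources used here. The series title concerns trigeminal neuropathic pain and exchange between neurons and the cells around them, to which the matrix-forming cells belong.

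The extracellular matrix of a ganglion is laid down mainly by fibroblasts of the epineurium, endoneurium and meninges, while Schwann cells, satellite glia and vessels build the basement membranes around them. Fibrillar collagens form the load-bearing fibres, small leucine-rich proteoglycans set fibre thickness, elastin with its microfibrils gives recoil, and laminins with type IV collagen form the basement membrane. Collagen is folded by chaperones and hydroxylases inside the cell, trimmed and crosslinked outside it, and turned over by metalloproteinases that TIMP proteins inhibit.

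Libraries held 24.1 to 29.6 M reads in genes in the surgery experiment and 15.6 to 17.0 M in the injection experiment, as recovered from the steps of the low values. Values are FPKM, that is, reads relative to the length of the gene and the depth of the library, so levels of different genes are compared per length and only within 1 experiment. A gene is called when its Benjamini-Hochberg adjusted p in limma, over all genes tested, is under 0.05, and only then is it said to rise or fall. All log2 fold changes are differences of mean log2(FPKM + 0.5), except where an alternative analysis is named. Fold differences of group means are instead ratios of mean FPKM without the added 0.5. In sham 1, pituitary hormone genes stood apart, with Gh at 546 FPKM against 74.0 in sham 2 and 243 in sham 3, and Pomc at 158 FPKM against 1.08 and 2.49. Libraries are bulk tissue, so fewer cells of a type and less RNA per cell cannot be told apart.

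At 6 hours after UCN1, 8 of the 50 tested genes (16.0%) were lower than after PBS and 1 (2.0%) was higher. Over all 16139 genes tested, 0.297% were called lower and 0.304% higher, 0.601% together. Since the list was chosen with earlier results of these data known, these shares describe it and are no test of an excess. The genes that fell were Mfap4, Eln and Fbln1 of the elastic fibre, the proteoglycan genes Fmod and Bgn, the collagen gene Col6a1, the peptidase gene Cpz and the transporter gene Slc47a1. The gene that rose was Serpinh1, the collagen chaperone. Of the 8, 6 (12% of the tested list) were at least 2-fold lower, against 0.217% of all genes. In 20 of the 50 (40.0%) both UCN1 libraries lay below both PBS libraries, against 23.7% of all genes, and in 2 (4.0%) both lay above, against 21.8%. In either direction that was 22 genes (44.0%), near the 45.5% of all genes. The median log2 fold change of the list was -0.16, beside -0.01 over all genes. It depended on the PBS libraries and was -0.01 without PBS 1.

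The promoters of 5 genes called after UCN1 are shown here so that the start regions of genes called within hours of the injection can be read side by side. They are those of the 9 called genes with exactly 1 window in the RefSeq table, since Fbln1 has more than 1 and Mfap4, Slc47a1 and Eln were not matched. Each is the RefSeq window of 300 bases, from 250 before to 50 after the start, on build GRCm38.p6, printed in the gene's own direction. Capitals mark matches, on either strand, to the CCAAT box (CCAAT), the GC box (GGGCGG) or the AP-1 motif (TGANTCA). Fmod, the fibromodulin gene, lies at chr1:134037004-134037303 on the plus strand and Bgn, the biglycan gene, at chrX:73483351-73483650 on the plus strand. Col6a1 lies at chr10:76725995-76726294 on the minus strand, Cpz at chr5:35525577-35525876 on the minus strand and Serpinh1 at chr7:99353190-99353489 on the minus strand.
Fmod: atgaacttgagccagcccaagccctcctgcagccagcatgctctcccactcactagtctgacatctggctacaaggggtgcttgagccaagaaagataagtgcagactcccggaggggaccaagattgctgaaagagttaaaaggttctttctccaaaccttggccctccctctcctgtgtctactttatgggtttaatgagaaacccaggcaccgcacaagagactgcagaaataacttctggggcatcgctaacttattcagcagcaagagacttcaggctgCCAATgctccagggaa
Bgn: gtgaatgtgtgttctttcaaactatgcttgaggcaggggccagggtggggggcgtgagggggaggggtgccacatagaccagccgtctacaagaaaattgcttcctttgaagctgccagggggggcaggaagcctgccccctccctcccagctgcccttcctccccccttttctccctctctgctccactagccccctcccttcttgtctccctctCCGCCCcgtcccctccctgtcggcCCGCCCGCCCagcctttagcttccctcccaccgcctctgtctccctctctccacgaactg
Col6a1: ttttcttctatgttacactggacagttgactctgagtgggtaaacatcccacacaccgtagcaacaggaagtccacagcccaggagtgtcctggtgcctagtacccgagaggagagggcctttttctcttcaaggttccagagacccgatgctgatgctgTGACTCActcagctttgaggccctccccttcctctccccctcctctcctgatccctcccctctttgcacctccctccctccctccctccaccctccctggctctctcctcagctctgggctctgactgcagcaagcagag
Cpz: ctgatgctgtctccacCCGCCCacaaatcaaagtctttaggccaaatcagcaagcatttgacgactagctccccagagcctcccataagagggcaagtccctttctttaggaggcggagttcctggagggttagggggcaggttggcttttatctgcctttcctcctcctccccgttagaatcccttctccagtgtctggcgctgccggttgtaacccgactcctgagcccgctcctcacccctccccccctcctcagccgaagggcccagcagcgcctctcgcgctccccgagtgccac
Serpinh1: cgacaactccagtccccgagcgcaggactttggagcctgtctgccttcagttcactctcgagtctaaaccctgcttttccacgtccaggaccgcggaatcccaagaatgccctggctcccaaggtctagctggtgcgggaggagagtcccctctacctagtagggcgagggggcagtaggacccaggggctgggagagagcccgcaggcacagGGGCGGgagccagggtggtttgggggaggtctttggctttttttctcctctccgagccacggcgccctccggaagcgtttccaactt
The Fmod window held 1 CCAAT box, the Bgn window 3 GC boxes, of which 2 overlap, and the Cpz and Serpinh1 windows 1 GC box each. The Col6a1 window held 1 AP-1 match and no other motif searched. None of the 5 windows held the TATA box TATAAA or the heat shock element GAANNTTC, the last of which was added after the values were seen. Promoters were found for 36 of the 52 genes, some with more than 1 start, giving 41 windows. A GC box stood in 25 of these 41 (61.0%) and in 35.7% of all 32851 windows of the table. The CCAAT box stood in 12 (29.3%, 37.4% of all), the TATA box in 7 (17.1%, 13.6% of all), AP-1 in 3 (7.32%, 7.81% of all) and the heat shock element in 1, that of Lama2 (2.44%, 7.86% of all). These are matches of letters and not shown sites.

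Mfap4, of the elastic fibre and microfibril class, had the largest difference of the list on the log2(FPKM + 0.5) scale, while the ratio of group means was larger for Slc47a1 (59.9-fold). Mfap4 encodes a microfibril-associated glycoprotein that binds elastin and collagen, at chromosome 11 from 61485431 to 61488900 (GRCm38). It stood at 44.9 and 40.9 FPKM in the PBS libraries and at 1.28 and 1.01 in the UCN1 libraries, from 842 and 832 recovered reads against 26 and 20. The group means were 42.9 ± 2.80 and 1.14 ± 0.186 FPKM (SD, n = 2 each), 37.5-fold apart. The groups were far from overlapping, and the log2 fold change was -4.73 (SE 0.15, limma adjusted p = 8.41e-06). It was called in each of the 14 alternative analyses in which it was tested, with log2 fold changes from -5.21 to -4.36.

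Fbln1, the fibulin 1 gene of elastic fibres and basement membranes, stood at 4.65 and 5.25 FPKM after PBS and 1.08 and 1.12 after UCN1. The replicates were close to each other in both groups, and the log2 fold change was -1.77 (SE 0.21, limma adjusted p = 0.0178). Eln, the gene of elastin itself, stood at 7.50 and 6.82 FPKM after PBS and 3.03 and 3.00 after UCN1. Its log2 fold change was -1.12 (SE 0.17, limma adjusted p = 0.0387), a 2.37-fold difference of means. The other 4 genes of the class were not called. Mfap5, which encodes another microfibril glycoprotein, stood at 23.0 and 23.9 FPKM after PBS and 21.5 and 19.6 after UCN1 (log2 fold change -0.19). Fbn1, which encodes fibrillin 1, the backbone of the microfibril, had a log2 fold change of -0.29. Fbln2 and Fbln5, of 2 further fibulins, had -0.11 each. All 7 log2 fold changes of the class were below 0, with a median of -0.29, and only in Fbln2 and Fbln5 did the groups' libraries overlap.

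Among the proteoglycans, Fmod, whose product fibromodulin binds collagen fibrils, stood at 33.2 and 13.2 FPKM after PBS and 1.09 and 0.663 after UCN1. The 2 PBS libraries differed 2.52-fold from each other, and both lay far above the UCN1 libraries. The log2 fold change was -3.98 (SE 0.38, limma adjusted p = 0.00864). Bgn, the biglycan gene, was among the more abundant of those that fell. It stood at 115 and 98.3 FPKM after PBS and 54.4 and 60.7 after UCN1, a difference of -0.88 on the log2 scale (SE 0.11, limma adjusted p = 0.0184). The other abundant genes of the class showed no such gap. Dcn, the decorin gene, stood at 241 and 206 FPKM after PBS and 246 and 217 after UCN1. Lum, the lumican gene, stood at 48.0 and 26.3 FPKM against 36.7 and 32.9, within the spread of the PBS pair. Ogn, the osteoglycin gene, stood at 176 and 133 FPKM against 135 and 90.0 (log2 fold change -0.47, limma adjusted p = 0.358). Vcan, the versican gene, was low, with a log2 fold change of -0.31.

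Slc47a1 encodes an organic cation exporter that single-cell studies use as a marker of meningeal fibroblasts, and lies at chromosome 11 from 61343401 to 61378345. It stood at 4.39 and 5.62 FPKM after PBS and at 0.167 and 0 after UCN1, from 121 and 168 recovered reads against 5 and 0. The log2 fold change was -3.24 (SE 0.29, limma adjusted p = 0.00612), and the pseudocount holds it down, since it came to -6.46 on recovered reads with limma voom, against -5.21 for Mfap4. Slc47a1 and Mfap4 are near neighbours on chromosome 11, 107 kilobases apart. The 2 tested genes that lie wholly between them were not called and had log2 fold changes of 0.17 and 0.35. Pdgfra, the receptor gene by which fibroblasts of many tissues are recognised, stood at 15.9 and 12.3 FPKM after PBS and 12.8 and 11.9 after UCN1 (log2 fold change -0.17, limma adjusted p = 0.666). Ptgds, a prostaglandin D synthase gene of the arachnoid and of glia, stood at 9.25 and 9.36 FPKM against 6.09 and 7.77 (log2 fold change -0.41, limma adjusted p = 0.329).

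Of the 6 genes classed here under collagen maturation and crosslinking, Serpinh1 rose and the peptidase gene Cpz fell. Serpinh1 encodes HSP47, the chaperone of procollagen in the endoplasmic reticulum, and lies at chromosome 7 from 99345376 to 99353239. It stood at 70.6 and 55.8 FPKM after PBS and rose to 113 and 126 after UCN1, a difference of 0.92 on the log2 scale (SE 0.12, limma adjusted p = 0.0258). Both UCN1 libraries lay above both PBS libraries, and the means were 1.89-fold apart. Cpz, the gene of a secreted carboxypeptidase that binds Wnt proteins, stood at 7.04 and 4.49 FPKM after PBS and fell to 0.272 and 0.515 after UCN1, from 143 and 99 recovered reads to 6 and 11. Its log2 fold change was -2.79 (SE 0.29, limma adjusted p = 0.013). The crosslinking enzymes were not called. Loxl1, whose enzyme acts on elastin, stood at 4.39 and 3.93 FPKM against 2.35 and 2.13 (log2 fold change -0.77, limma adjusted p = 0.172), and Lox at 25.5 and 17.2 FPKM against 15.7 and 12.4 (-0.57, limma adjusted p = 0.282). In both genes the groups did not overlap. Pcolce, which enhances the trimming of procollagen, and Aebp1, which encodes a collagen-binding carboxypeptidase-like protein, had log2 fold changes of -0.18 and 0.17.

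Of the 3 chains of type VI collagen, the beaded filament around cells, 1 was called. Col6a1 fell from 30.5 and 24.7 FPKM after PBS to 14.5 and 15.9 after UCN1, a difference of -0.83 on the log2 scale (SE 0.13, limma adjusted p = 0.0462). Col6a2, which lies beside it in the genome, stood at 15.4 and 12.7 FPKM against 6.63 and 8.82 and was not called (log2 fold change -0.83, SE 0.17, limma adjusted p = 0.105). Col6a3, the third chain, stood at 13.1 and 10.6 FPKM against 12.3 and 14.4 (log2 fold change 0.17). The difference between the chains was not tested. Col12a1, of a collagen that decorates fibrils, stood at 15.5 and 11.4 FPKM against 6.96 and 6.99 and did not pass either (log2 fold change -0.88, SE 0.17, limma adjusted p = 0.084). Col14a1, Col8a1 and Col15a1 had log2 fold changes of -0.34, 0.22 and 0.05.

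None of the fibrillar collagen, basement membrane, adhesive glycoprotein or protease and inhibitor genes was called, where 0.601% of all genes were. The 5 fibrillar collagen genes had a class median of -0.03. Col1a1 stood at 251 and 195 FPKM after PBS and 191 and 207 after UCN1, Col3a1 at 203 and 144 against 183 and 185, and Col1a2 at 324 and 244 against 220 and 217 (log2 fold changes -0.16, 0.11 and -0.36). Only Col1a2 of these 3 had both UCN1 libraries below both PBS libraries. The 6 basement membrane genes had log2 fold changes from -0.01 in Nid1 to 0.11 in Lama2, with a median of 0.02. Col4a1, whose chain forms the vascular and glial basement membrane, stood at 215 and 188 FPKM against 208 and 218. Sparc, a collagen-binding matricellular protein and the most abundant of the list per length, stood at 1853 and 1514 FPKM against 1606 and 1661. Fn1, of fibronectin, stood at 19.1 and 11.6 FPKM against 10.9 and 11.2 (log2 fold change -0.42, limma adjusted p = 0.438). Postn, Thbs2 and Tnxb had log2 fold changes of -0.32, -0.34 and -0.02, and Tnc and Dpt were too low to test. The 5 genes of proteases and inhibitors ran from -0.29 in Timp1 to 0.20 in Mmp2. Timp2 stood at 656 and 653 FPKM after PBS and 694 and 709 after UCN1, the other gene beside Serpinh1 with both UCN1 libraries on top.

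**Figure D1:**
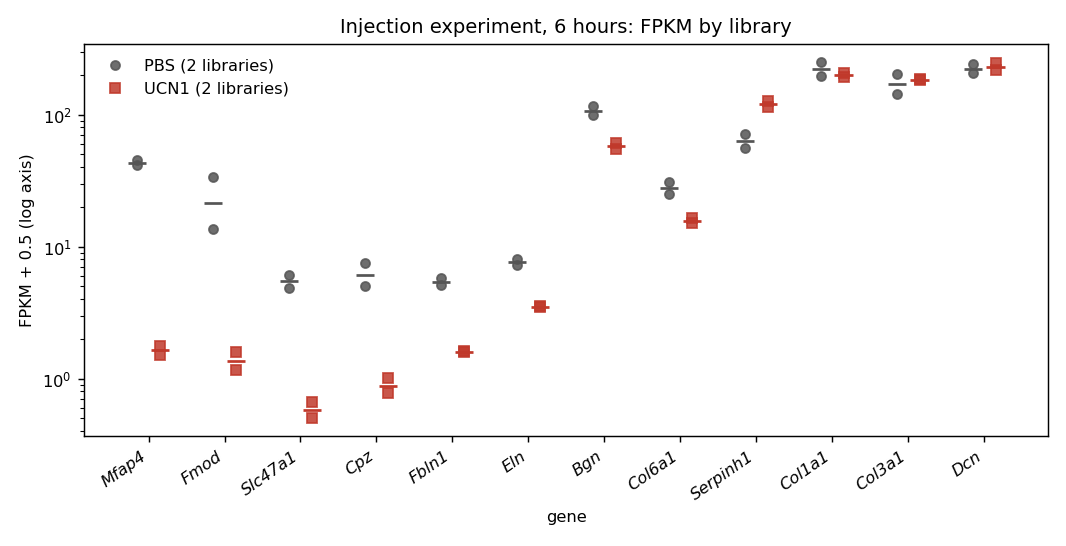
FPKM + 0.5 on a log axis in the 2 PBS (grey circles) and 2 UCN1 libraries (red squares) for the 9 genes called and for Col1a1, Col3a1 and Dcn, with lines at the means of the log values. Mfap4 stands at 44.9 and 40.9 FPKM against 1.28 and 1.01, while Col1a1, Col3a1 and Dcn overlap between groups.

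The 9 calls rest on 2 libraries per group, and limma voom on recovered reads called all 9 the same way. Leaving out UCN1 1 or UCN1 2 left Mfap4 alone called (limma adjusted p = 0.000948 and 0.00303), and limma adjusted p for the other 8 then ran from 0.0674 to 0.454, with the same signs and log2 fold changes of -4.21 to -0.77 for those that fell and 0.84 and 1.00 for Serpinh1. Without PBS 1, Mfap4, Fmod, Slc47a1 and Serpinh1 were called, and without PBS 2, Mfap4 and Fmod. PBS 1 was the highest of the 4 libraries in 32 of the 50 genes (64.0%), against 30.9% of all genes, so the PBS pair itself differed along the list: the median difference from the PBS mean was 0.15 in PBS 1, -0.15 in PBS 2, -0.14 in UCN1 1 and -0.18 in UCN1 2. Without PBS 1 the list median was -0.01, and without PBS 2 it was -0.35. Without either PBS library the difference of Mfap4 stayed near its size, at -4.66 and -4.79.

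Other matrix genes were read from lists of the same pathway. None of 22 other collagens, 10 other basement membrane genes, 25 matrix receptors and 13 genes of the TGF-beta pathway was called after UCN1. Of all genes 0.601% were called, a share at which lists of this size would often hold none. Of 42 other glycoproteins and proteoglycans, 2 (4.76%) fell and none rose. Igfbp5, of an insulin-like growth factor binding protein held in the matrix, fell from 67.2 and 74.6 FPKM to 27.3 and 26.8 (log2 fold change -1.37, SE 0.10, limma adjusted p = 0.0015). Smoc1, of a SPARC-related basement membrane protein, fell from 11.4 and 9.43 FPKM to 5.13 and 4.70 (log2 fold change -1.01, limma adjusted p = 0.0462). Of 35 other matrix enzymes and inhibitors, 2 (5.71%) rose and none fell. Both encode catalytic subunits of collagen prolyl 4-hydroxylase, the enzyme that stabilises the triple helix. P4ha1 rose from 20.1 and 18.3 FPKM to 39.4 and 35.9 (log2 fold change 0.95, SE 0.11, limma adjusted p = 0.0172) and P4ha2 from 13.9 and 12 FPKM to 21.5 and 23.2 (log2 fold change 0.77, SE 0.12, limma adjusted p = 0.047). With Serpinh1, the 3 genes called higher in the matrix lists act on procollagen inside the cell. Without a filter on low values no gene at all was called higher, so these 3 calls were lost there. The uncalled genes of the lists were not sorted by where their products act. The rest of the 35 enzyme and inhibitor genes were not called. Of the 35, 22 had log2 fold changes below 0 and 13 above, with a median of -0.15.

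Markers of neighbouring tissues were counted in the same libraries, beside 0.297% of all genes called lower and 0.304% called higher. Of 15 tested markers of meningeal fibroblasts and the arachnoid barrier, 1 fell and none rose, with a median log2 fold change of -0.68. It was Alpl, a phosphatase gene also counted among bone markers, at 18.4 and 17.2 FPKM after PBS and 7.55 and 8.95 after UCN1 (log2 fold change -1.07, limma adjusted p = 0.0222). Zic1, a transcription factor gene of the meninges, stood at 1.45 and 1.68 FPKM against 0.200 and 0.0619 (log2 fold change -1.72, limma adjusted p = 0.09). Igfbp2 stood at 14.0 and 8.29 FPKM against 5.11 and 5.95, and Aldh1a2, whose enzyme makes retinoic acid in the meninges, at 0.816 and 1.01 against 1.71 and 2.35. Neither was called, and Zic1, Igfbp2 and Aldh1a2 were picked after their values were seen. The summed level of the meningeal list was 164 to 168 FPKM after PBS and 145 to 146 after UCN1. Of 6 tested pituitary genes 3 fell, with Gh at 103 and 104 FPKM against 5.17 and 6.60 (log2 fold change -4.03, limma adjusted p = 8.41e-06), Prl at 12.4 and 11.9 against 1.09 and 0.775, and Pomc at 5.62 and 4.06 against 1.03 and 0.915. The list's sum was 327 to 360 FPKM after PBS and 215 to 228 after UCN1, and Lhb was at 0 in all 4 libraries. That sum also counts Chga, which sensory neurons express too, and it understates the fall of Gh, Prl and Pomc. Of 10 bone, cartilage and tendon genes Alpl alone fell, and the sum was 48.7 to 52.2 FPKM against 33.2 to 35.6. The part of any of these tissues in the fall of Mfap4, Fmod, Slc47a1 and Cpz was not tested.

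In the other marker lists none was called after UCN1, where 0.601% of all genes were, so short lists would often hold no call. Among them were 12 genes of epineurial and endoneurial fibroblasts (sums of 996 to 1270 FPKM after PBS and 1333 to 1411 after UCN1), 8 of perineurial cells, 9 of mural cells and 11 of the endothelium. The same held for 14 macrophage, 4 neutrophil, 3 muscle, 4 red blood cell, 5 oligodendrocyte and astrocyte, 9 Schwann cell, 8 satellite glia and 13 neuron genes. Gsn, of the actin-severing protein gelsolin and second in level in the nerve fibroblast list after Apod, stood at 94.7 and 85 FPKM after PBS and 120 and 126 after UCN1 (log2 fold change 0.46, limma adjusted p = 0.0952).

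At 10 days after pIONT, 2 of the 50 tested genes (4.0%) were higher than in sham and 2 (4.0%) lower, against 10.5% and 12.3% of all 14672 genes tested (22.8% together). The share of the list that was called lay below that of all genes in both directions. Timp1, an inhibitor of metalloproteinases, and Col8a1, a short-chain collagen, rose. Mfap5 and Fbln2 of the elastic fibre fell. In 10 genes (20%) all pIONT libraries lay above all sham libraries, near the 18.7% of all genes, and in 3 (6.0%) all lay below, against 24.7%. In either direction that was 13 genes (26.0%), against 43.4%. The log2 fold change was above 0 in 42 of the 50 (84.0%), against 45.0% of all genes, and the list's median was 0.33, beside -0.02.

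Timp1 lies on chromosome X from 20736405 to 20740974 in the coordinates of the surgery table, which are not those of GRCm38. It stood at 1.89, 0.744 and 1.82 FPKM in sham and 3.22, 11.4 and 4.18 in pIONT. All pIONT libraries were above all sham libraries, with pIONT 2 far above the rest, and the log2 fold change was 1.64 (SE 0.45, limma adjusted p = 0.0418). The call was lost without sham 1, sham 2, sham 3, pIONT 2 or pIONT 3, at limma adjusted p of 0.0534 to 0.111, and without pIONT 2 the log2 fold change was 1.13. The RefSeq promoter of Timp1 on GRCm38.p6, at chrX:20869916-20870215 on the plus strand, is given beside its rise for comparison with those above. Capitals mark, in order, a CCAAT box on the minus strand and a GC box on the minus strand.
Timp1: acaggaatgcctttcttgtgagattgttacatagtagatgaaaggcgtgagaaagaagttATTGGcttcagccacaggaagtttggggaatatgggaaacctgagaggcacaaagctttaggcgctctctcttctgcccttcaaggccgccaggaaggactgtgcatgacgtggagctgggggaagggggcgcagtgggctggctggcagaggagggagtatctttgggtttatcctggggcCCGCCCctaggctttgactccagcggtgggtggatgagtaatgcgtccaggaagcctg
Col8a1 stood at 1.09, 1.03 and 0.800 FPKM in sham and 1.90, 3.57 and 1.50 in pIONT. The groups did not overlap and pIONT 2 was again highest, and the difference was 0.88 on the log2 scale (SE 0.25, limma adjusted p = 0.0446). It was still called without pIONT 2, at 0.58 (limma adjusted p = 0.0357), and lost its call without sham 1, sham 2, sham 3 or pIONT 1, at limma adjusted p of 0.0768 to 0.134.

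Mfap5, unlike most of the list, fell. It stood at 16.9, 14.1 and 17.8 FPKM in sham and 10.7, 11.1 and 12.3 in pIONT, with no overlap and a close pIONT group. The log2 fold change was -0.49 (SE 0.09, limma adjusted p = 0.0118), and it was called in all 16 alternative analyses. Fbln2 stood at 31.9, 35.6 and 34.9 FPKM in sham and 30.8, 29.2 and 27.5 in pIONT, groups that lay close without overlapping. Its log2 fold change was -0.22 (SE 0.06, limma adjusted p = 0.0373), and the call was lost in 8 of 16 alternative analyses, those without sham 2, sham 3, pIONT 2 or pIONT 3 among them (limma adjusted p from 0.0821 to 0.12). The other elastic fibre genes were not called. Eln stood at 1.31, 0.782 and 0.968 FPKM in sham and 0.952, 1.28 and 0.984 in pIONT, and Mfap4 at 7.75, 4.2 and 5.74 FPKM against 10.6, 19.9 and 4.92 (log2 fold change 0.78, SE 0.45, limma adjusted p = 0.257). Fbln5, Fbln1 and Fbn1 had log2 fold changes of -0.12, 0.32 and 0.22.

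Among the fibrillar collagens, pIONT 2 was the highest library in Col1a1, Col3a1 and Col1a2. Col1a1 stood at 32.7, 24.8 and 24.7 FPKM in sham and 34.7, 73.9 and 35.9 in pIONT. Col3a1 stood at 18.7, 16.6 and 16.1 FPKM against 25.6, 57.0 and 19.4, and Col1a2 at 32.7, 27.8 and 31.6 against 33.7, 61.4 and 33.2. In each the pIONT libraries lay above sham without overlap, and none was called (log2 fold changes 0.72, 0.82 and 0.41; limma adjusted p = 0.114, 0.14 and 0.231). Col5a2 and Col5a1, of the collagen that nucleates type I fibrils, had 0.49 and 0.43. Col6a3 came close, at 4.18, 3.07 and 3.50 FPKM against 4.40, 5.52 and 4.58 (log2 fold change 0.39, SE 0.12, limma adjusted p = 0.0568), with Col6a1 and Col6a2 at 0.35 and 0.36. Col12a1, Col15a1 and Col14a1 had 0.31, 0.11 and 0.04.

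The matricellular genes, whose products signal in tissue repair, gave the widest gap between pIONT 2 and the other libraries. Tnc, of tenascin C, stood at 0.333, 0.376 and 0.507 FPKM in sham and 0.931, 3.26 and 0.5 in pIONT (log2 fold change 0.96, SE 0.44, limma adjusted p = 0.164). Postn, of periostin, stood at 2.79, 5.00 and 3.80 FPKM against 4.25, 13.8 and 4.50 (0.71, limma adjusted p = 0.272), and Thbs2, of thrombospondin 2, at 1.91, 1.39 and 1.37 against 2.18, 4.86 and 1.53 (0.59, limma adjusted p = 0.242). In all 3 the groups overlapped. Fn1 had 0.53, Sparc 0.25 at 408 to 450 FPKM in sham and 444 to 646 in pIONT, and Tnxb, of a tenascin of resting connective tissue, -0.04 with all 6 libraries between 3.87 and 4.38 FPKM. Of the proteases, Mmp2 stood at 8.39, 8.50 and 7.63 FPKM against 10.7, 17.9 and 9.99 with no overlap (log2 fold change 0.58, limma adjusted p = 0.0808), and Mmp14, the membrane protease that activates it, had 0.30. The abundant inhibitor gene Timp2 stood at 247, 242 and 255 FPKM against 237, 221 and 231, with no overlap and a log2 fold change of -0.11 (limma adjusted p = 0.131). Timp3 had -0.03, and 21.3% of its exon bases overlap Syn3 on the other strand. For Fbn1 that share was 20.1% (Gm9913) and for Mfap4 4.6% (Mapk7), and the sources used here do not state whether reads were counted by strand, so such reads cannot be told apart.

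Basement membrane genes had a median log2 fold change of 0.18 and none was called, with Nid1 at 0.39, Lamc1 at 0.22 and Col4a1 at 25.9, 25.5 and 26.2 FPKM in sham and 29.0, 33.6 and 26.7 in pIONT (0.19, limma adjusted p = 0.126). Col4a2, Lama2 and Lama4 had 0.17, 0.08 and 0.02. Among the proteoglycans Dcn stood at 96.8, 70.8 and 74.9 FPKM against 74.6, 81.2 and 91.7, and Ogn at 130, 103 and 105 against 117, 117 and 126. Both overlapped between groups and lacked the high value in pIONT 2. Bgn, Lum and Fmod had 0.50, 0.27 and 0.61, the last from 5.28, 1.13 and 1.97 FPKM in sham and 3.27, 10.0 and 1.56 in pIONT (SE 0.66, limma adjusted p = 0.545). Vcan and Dpt, of dermatopontin, were too low to test. Of the maturation genes, Serpinh1 stood at 56.8, 45.5 and 56.7 FPKM against 56.6, 97.2 and 53.9 (0.34, limma adjusted p = 0.315), and Cpz, Pcolce, Aebp1, Loxl1 and Lox had 0.46, 0.37, 0.37, 0.34 and -0.08. Slc47a1 stood at 1.69, 0.977 and 2.55 FPKM against 2.67, 1.95 and 2.09 (0.34, limma adjusted p = 0.368), and Pdgfra had 0.19.

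**Figure D2:**
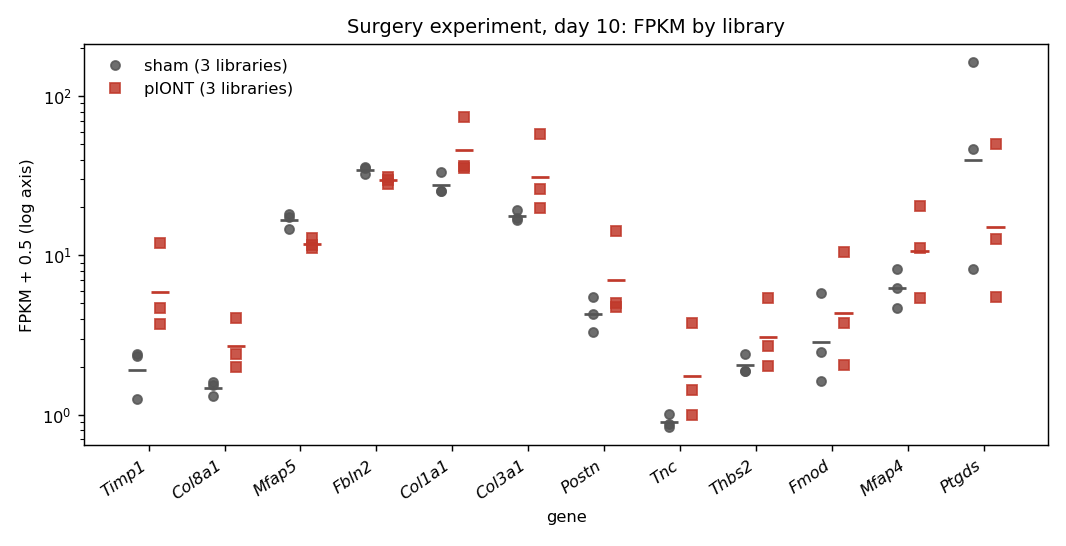
FPKM + 0.5 on a log axis in the 3 sham (grey circles) and 3 pIONT libraries (red squares) for the 4 genes called and 8 others with large differences, with lines at the means of the log values. The library pIONT 2 is the highest square in Timp1, Col8a1, Col1a1, Col3a1, Postn, Tnc, Thbs2, Fmod and Mfap4.

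The library pIONT 2 was the highest of the 6 in 39 of the 50 tested genes (78.0%), against 26.1% of all genes. The median difference of the list from the sham mean was 0.66 on the log2 scale in pIONT 2, 0.19 in pIONT 1 and 0.04 in pIONT 3, and 0.11, -0.08 and -0.02 in the sham libraries. By class, pIONT 2 stood at 1.31 for the adhesive and matricellular glycoproteins, 0.99 for the fibrillar collagens, 0.90 for the maturation genes and 0.36 for the basement membrane. Without pIONT 2 the list's median was 0.11, and Mfap5 (-0.48), Mmp2 (0.32, limma adjusted p = 0.0236) and Col8a1 (0.58) were called. Without pIONT 3, 5 genes were called higher and 1 lower: Bgn (0.71), Col4a1 (0.27), Col4a2 (0.26), Mfap4 (1.27), Col8a1 (1.09) and Mfap5 (-0.55). Of 14 macrophage genes 9 (64.3%) rose in pIONT and none fell, and their summed level was 179 to 331 FPKM in sham and 387 to 914 in pIONT. Ctss, a lysosomal protease gene among them, stood at 53.1, 128 and 48.7 FPKM in pIONT 1 to 3, against 29.5, 11.3 and 15.2 in sham (log2 fold change 1.97, limma adjusted p = 0.0221). Whether macrophages or another cell carried the matrix transcripts of pIONT 2 was not tested.

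**Figure D3:**
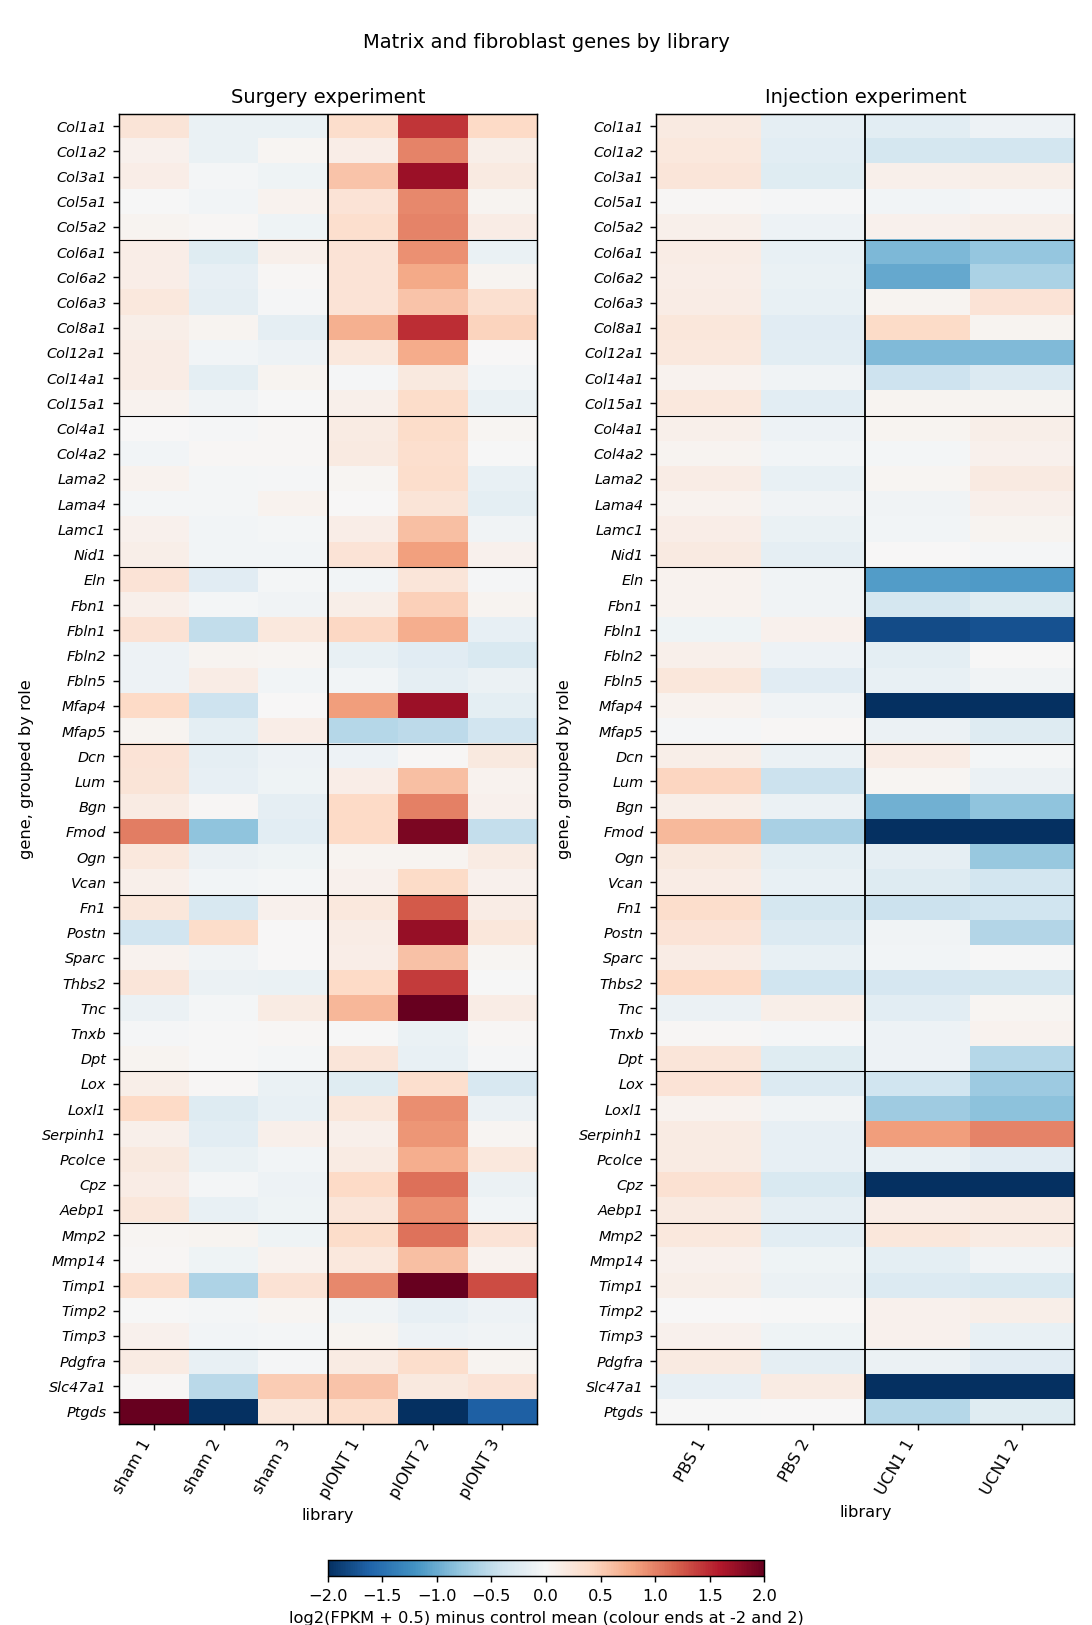
Each row is a gene and each column a library, coloured by log2(FPKM + 0.5) minus the mean of the control libraries (sham or PBS), with genes grouped by role and colour ending at -2 and 2. The red column is pIONT 2, highest in 39 of 50 tested genes, and the dark blue cells under UCN1 are Mfap4, Fmod, Cpz, Slc47a1 and Fbln1.

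Other matrix genes were read from the same lists as after UCN1, against 10.5% of all genes called higher and 12.3% called lower. Of 37 other matrix enzymes and inhibitors, 10 (27%) rose and none fell. Loxl2, of a crosslinking enzyme of the lysyl oxidase family, rose from 0.702, 0.470 and 0.737 FPKM to 7.37, 8.31 and 6.19 (log2 fold change 2.78, limma adjusted p = 5.5e-05). Mmp16, of a membrane-type metalloproteinase, rose from 0.564, 0.498 and 0.522 FPKM to 3.60, 4.34 and 3.67 (2.08, limma adjusted p = 3.17e-05). Adamts1 and Plod3 rose by 0.61 and 0.49. Of 25 matrix receptors 7 (28%) rose and none fell, with Sdc1 (syndecan 1) from 3.70, 3.17 and 3.69 FPKM to 21.7, 28.0 and 18.2 (2.51) and Itga7, of a laminin-binding integrin, from 26.4, 25.0 and 26.8 FPKM to 77.4, 83.6 and 68.9 (1.54). Ddr2, of a collagen receptor, and Cd44, of the hyaluronan receptor, rose by 0.65 and 0.58.

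Of 38 other glycoproteins and proteoglycans 7 (18.4%) rose and 5 (13.2%, near the 12.3% of all genes) fell, with Ncan (0.63), Ccn4 (0.57) and Ltbp3 (-0.31) among the smallest p. Of 17 other collagens Col5a3 rose (0.59) and Col9a2 fell (-0.37), 11.8% in all against 22.8% of all genes. Of 8 other basement membrane genes Lama5 rose (1.07). In the TGF-beta pathway, which drives matrix genes in fibroblasts, 3 of 13 (23.1%) rose and 3 (23.1%) fell. Tgfb1 rose from 1.27, 1.15 and 1.44 FPKM to 2.79, 3.19 and 2.52 (0.90, limma adjusted p = 0.00196), with Tgfbr1 (0.68) and Tgfbr2 (0.36), while the inhibitor Smad7 (-0.40) fell.

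Marker lists of other cell types are read against the same 10.5% called higher and 12.3% called lower. Of 13 genes of epineurial and endoneurial fibroblasts, Ly6a (1.27) and Clec3b (0.77) rose (15.4%) and Etv1 (-0.40) fell (7.69%), and the summed level was 577 to 765 FPKM in sham and 794 to 1020 in pIONT. Of 12 meningeal genes Cdh1 fell (-0.24; 8.33%), with sums of 71.6 to 113 FPKM in sham and 96.0 to 99.7 in pIONT. Of 9 perineurial genes 2 (22.2%) rose and 2 (22.2%) fell, of 9 bone, cartilage and tendon genes 3 (33.3%) fell, and of 8 mural genes none was called. Of 9 Schwann cell genes 6 (66.7%) fell, of 11 endothelial genes 2 (18.2%) fell, and of 8 satellite glia genes 2 (25%) rose. Of 13 neuron genes 3 (23.1%) rose and 6 (46.2%) fell. Of 6 pituitary genes Chga, which sensory neurons express too, was the 1 (16.7%) that fell, and none of 9 neutrophil, 3 muscle, 5 red blood cell and 7 oligodendrocyte and astrocyte genes was called.

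Several of the genes that fell after UCN1 also varied among sham libraries. The 5 tested genes whose highest sham library was at least 2-fold above the lowest were Ptgds, Fmod, Slc47a1, Timp1 and Fbln1. Ptgds had the widest range, at 163, 7.66 and 45.9 FPKM in sham and 49.8, 4.95 and 12.2 in pIONT (log2 fold change -1.38, SE 1.18, limma adjusted p = 0.436). The values overlapped over most of their range. Ptgds and the pituitary genes Gh and Pomc were all highest in sham 1. Among the sham libraries so was Fmod, at 5.28 FPKM against 1.13 and 1.97. The same held for Mfap4 (7.75 against 4.2 and 5.74), Fbln1, Eln, Cpz, Bgn and Col6a1. Of the genes that fell after UCN1, Slc47a1 alone was instead highest in sham 3, at 2.55 FPKM against 1.69 in sham 1. The list's median difference was also highest in sham 1 among sham libraries (0.11). Fmod and Mfap4 were highest of all in pIONT 2 (10.0 and 19.9 FPKM), where the pituitary sum was 179 FPKM, against 869 in sham 1. Whether carried-over tissue had a part in this was not tested. Across the 49 genes tested in both experiments, the range over sham libraries and the size of the UCN1 log2 fold change had a Spearman rho of 0.70. The points share the 2 tables, and low genes vary more, since the same range had a rho of -0.43 with the mean level. The share of all genes with a 2-fold sham range and the rho over all genes were not computed. Neither value is therefore shown to be particular to the list.

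**Figure D4:**
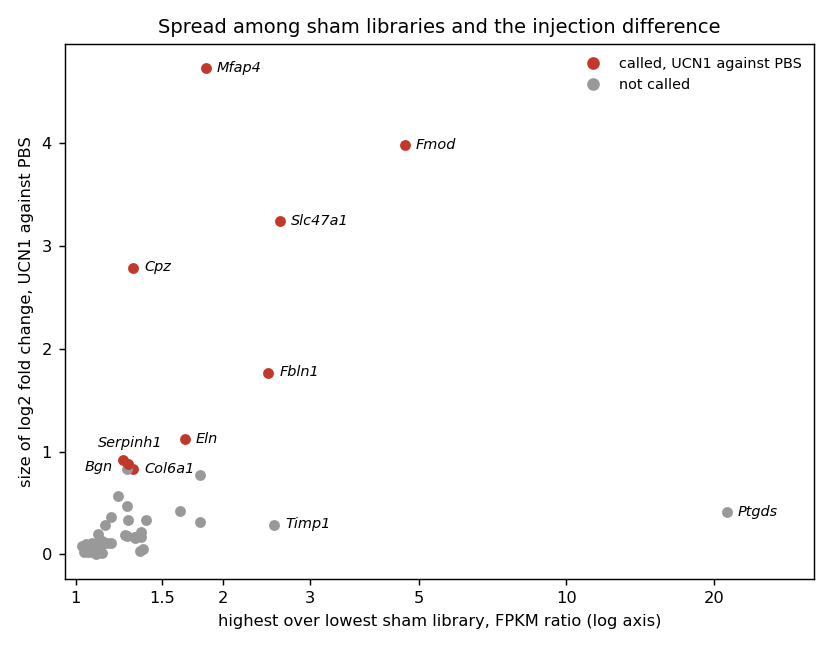
Each point is 1 of 49 genes, with the ratio of its highest to its lowest sham library in FPKM on a log x axis and the size of its log2 fold change for UCN1 against PBS on the y axis, red where called. Fmod, Slc47a1 and Fbln1 combine a sham range above 2-fold with a called difference, while Cpz and Serpinh1 have narrow sham ranges and Ptgds has the widest range without a call.

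No gene of the list was called in both experiments. The 8 genes that fell after UCN1 all had log2 fold changes above 0 in pIONT, from 0.06 in Eln to 0.78 in Mfap4, and none of those 8 was called there. A log2 fold change above 0 was shared by 42 of the 50 tested genes (84.0%), and among the 8 it turned below 0 in an alternative analysis for Eln (-0.06 without sham 2 and -0.03 without pIONT 2) and Fmod (-0.03, without pIONT 2). The 4 genes called in pIONT had log2 fold changes after UCN1 of -0.29 (Timp1), 0.22 (Col8a1), -0.19 (Mfap5) and -0.11 (Fbln2). Across the 49 genes the log2 fold changes of the 2 experiments had a Pearson r of -0.18 and a Spearman rho of -0.09. The experiments differ in procedure, time and table, and the difference between them was not tested.

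**Figure D5:**
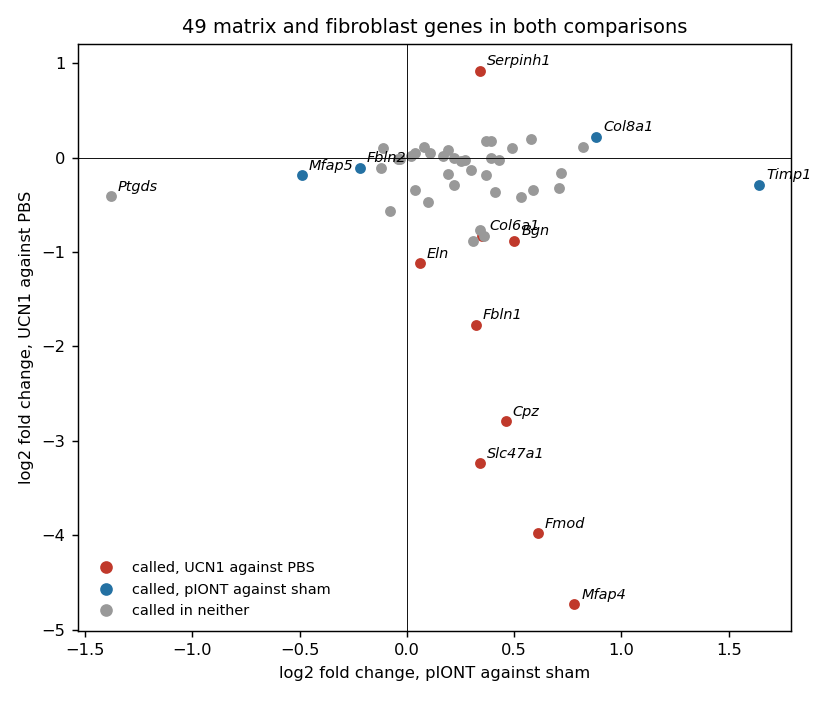
Each point is 1 of 49 genes, with its log2 fold change for pIONT against sham on the x axis and for UCN1 against PBS on the y axis, red where called after UCN1, blue where called in pIONT and grey where called in neither. The points called after UCN1 run down to -4.73 (Mfap4) at pIONT values between 0.06 and 0.78, and no point is called on both axes.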

How the data were processed

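RNA of mouse trigeminal ganglion was sequenced in 10 libraries (3 sham, 3 pIONT, 2 PBS, 2 UCN1). TRIzol extraction and the NEBNext Ultra II RNA kit were used, per the labels' protocols. The authors deposited 1 table of FPKM per experiment, in which reads are scaled by gene length and depth. Named in the submitters' processing notes, with no version or role, are STAR, HTSeq, DESeq2 and GRCm39. Of identifiers found in GENCODE vM21 (GRCm38), 99.42% in the injection table and 1.99% in the surgery table had the same start and end there, so the injection coordinates are those of GRCm38 and the build of the surgery table was not settled. Symbols came from the GENCODE vM21 name table. Low FPKM values were whole multiples of 1 read, within 0.1 reads, in 98.8% to 99.0% of cases with mean transcript length (injection) and 91.96% to 92.44% with union exon length (surgery). The 2 tables differ in their length definition, and levels were not compared across them.

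Genes with a mean of at least 0.5 FPKM were tested within each table by limma 3.58.1 (R 4.3.3). The fit used log2(FPKM + 0.5), a mean-variance trend, no covariate and Benjamini-Hochberg adjustment over all genes tested. Separate animals are not named in the labels, so the p-values cover the spread between these libraries only, and that spread may be technical. The members and lists were chosen with earlier results of these data known. All 52 genes are named. Values by library are given for those called, for the 10 largest differences per experiment and for the most abundant of each role, and from other lists up to 4 called genes by smallest p or else up to 2 of highest level are named. Zic1, Igfbp2 and Aldh1a2 were named in addition after their values were seen. Alternatives changed the pseudocount (0.1, 1), the filter (none, 2 FPKM), the scaling (TPM, median of ratios), the variance model, library weights and replicate block, used limma voom on recovered reads, or left out each library in turn. On simulated data with a fixed spread, the test made more false calls than the nominal share, more so with 2 libraries per group. False calls were 9.23% of calls in the surgery design and 13% in the injection design. Simulated 2-fold changes were recovered in 92.2% and 47% of cases, so a gene not called after UCN1 may still differ. Promoters are from a RefSeq table on GRCm38.p6.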

Additional observations from a re-analysis of the deposited data

How the results depend on the processing

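In pIONT the list had 2 genes called higher and 2 lower in limma. The count called higher was 1 with a pseudocount of 1 FPKM, 0 without a filter on low values and 0 without the variance trend, and it ran from 0 to 5 when each library was left out. The count called lower was 1 without a filter, 1 with median-of-ratios scaling and 1 without the variance trend, and ran from 1 to 2 with a library left out. Over all genes, leaving out a library gave 922 to 1389 called higher and 767 to 1580 called lower, against 1537 and 1807. The list's median log2 fold change ran from 0.11 (without pIONT 2) to 0.43 (without pIONT 3), against 0.33.

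After UCN1 the list had 1 gene called higher and 8 lower. Without a filter these were 0 and 1, without the variance trend 0 and 1, and with a library left out 0 to 1 and 1 to 3. Over all genes, 49 were called higher and 48 lower. These were 0 and 2 without a filter, 1 and 4 without the variance trend, 166 and 190 with voom on recovered reads, and 0 to 19 and 4 to 19 with a library left out, and a filter at 2 FPKM gave 84 called higher. The cause of these shifts was not tested, except that a library left out means fewer samples. The list's median ran from -0.35 (without PBS 2) to -0.01 (without PBS 1), against -0.16. The 9 list genes called kept their call under both other pseudocounts, the 2 FPKM filter, both scalings, library weights and voom.

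Libraries with the same number did not deviate together (correlations of -0.06, -0.20 and 0.07 in the surgery experiment and 0.04 in the injection experiment), so the numbers were not taken as pairs. Among the surgery libraries the best partner of a sham library was not always that of its own number. With a replicate block the pIONT list had 1 gene higher and 2 lower, Ptgds in place of Fbln2, and all genes 1053 higher and 1032 lower. After UCN1 the block gave 1 higher and 11 lower in the list, with Col6a2, Col12a1 and Ogn added, and 124 and 136 over all genes.

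With 2 libraries per group the injection fit had 2 residual degrees of freedom. Where a library was left out of the injection experiment, the lone sample of a group was assumed to vary like the other group. Reads of 20 to 34 behind the lowest values of Mfap4 and Fmod after UCN1, and of 0 to 11 for Slc47a1 and Cpz, limit the precision of their fold changes. Strand, animals and the role of each tool are not given in the sources used here. Groups of 2 and 3 libraries are too small for a test of single outlying libraries.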
